A study of Mus musculus with 3 samples.

Results

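The β-globin genes of the mouse lie inside a large array of olfactory receptor genes on chromosome 7. All GENCODE genes whose symbol begins with Olfr (or Or and a digit) and whose start lies in the 3 Mb of that chromosome that end at 105.4 Mb (mm10) were taken, which gave 156 of 55413 annotated genes. Of these, 129 are annotated as protein-coding and 27 as pseudogenes, and 91 lie at lower and 65 at higher coordinates than the span of the 5 protein-coding Hbb genes (chr7:103812524-103853216). The contrast was formed by the 24 other protein-coding genes of the same window, and the 1251 olfactory receptor genes elsewhere in the genome were set beside them.

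The assay was DNase-seq, in which the enzyme DNase I cuts accessible DNA, and the tissue was liver of mouse embryos at 13.5 days. All 3 libraries belong to 1 group, of mixed C57BL/6N and 129 strain background, homozygous for a globin mutation described as a deletion of HS2 and HS3, names known for enhancer sites of the β-globin locus control region. The replicates are labelled as separate biosamples that share 1 donor identifier, and nothing says whether they came from separate embryos or litters, so the spread between them may be partly technical. No liver without the deletion was analysed here, so nothing below compares genotypes.

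Olfactory receptors are odorant-binding membrane proteins of sensory neurons in the nose. Each such neuron transcribes a single allele of a single receptor gene, chosen with the help of the factors LHX2, EBF and LDB1 at distant enhancers, while the other receptor genes stay in compact heterochromatin. The genes around the β-globin locus are of class I, the fish-like class, and a long-range enhancer of this class known as the J element lies in the same array. The array is also known for sites bound by CTCF, a protein that anchors chromatin loops, on both sides of the globin genes.

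For each replicate there were peaks in a shorter list and in a longer one, footprints (short protected stretches inside open DNA), and bases whose local cut density passed a false discovery rate (FDR) of 0.05, called listed bases here. The peak signal is the authors' own value, read here as a cut density scaled to read depth, since its values are multiples of a fixed step in each library. The steps do not show at which point of a peak it was taken. The shorter lists held 28209, 57314 and 41319 peaks in replicates 1, 2 and 3, and the longer lists 43508, 84336 and 63109. The files state no depth. These steps were 0.0126, 0.00837 and 0.00753, which would correspond to depths of 79.4, 119.5 and 132.7 M cuts if 1 step is 1 cut per M. Replicate 2 held the most peaks in either list, and results that rest on it are named as such. The tissue label was checked with marker genes. The promoters of 10 of 10 erythroblast genes had a shorter-list peak in each replicate, those of 2, 4 and 1 of 6 hepatoblast genes in replicates 1, 2 and 3, and those of 0, 4 and 4 of 12 genes of olfactory sensory neurons. Of these, Gnal, Adcy3, Slc17a6 and Ncam2 had a shorter-list peak in replicates 2 and 3, and Slc17a6 and Ncam2 also a longer-list peak in replicate 1, of 0.466 and 0.454. Ano2 had a longer-list peak in replicate 1 alone. The other 7, among them Omp, the usual marker of mature neurons, and the channel genes Cnga2 and Cnga4, had no promoter peak in either list in any replicate. The summed promoter signal of the neuron genes was 0, 1.72 and 2.20, against 60.1, 91.3 and 57.9 for the erythroblast genes. In such mixed tissue, fewer cells of a type and less cutting per cell cannot be told apart.

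Almost every olfactory receptor gene was closed at its annotated starts. Within 500 bp of an annotated start, 0, 3 and 1 of the 156 genes had a shorter-list peak in replicates 1, 2 and 3, where 51.5%, 57.5% and 55.5% of all 21938 protein-coding genes had one. None of the 156 had one in each replicate, where 50.9% of protein-coding genes did. The longer lists gave 2, 4 and 2 of the 156, beside 57.1%, 62.2% and 60.7% of protein-coding genes, and 1 in each replicate, beside 55.7%. Any listed base near a start was found at 2, 5 and 3 of them, beside 58.2%, 63.5% and 61.9%, and in each replicate at 1, beside 56.8%. A footprint was found at 0, 3 and 2 of them, beside 54.6%, 58.3% and 58.5%, and in each replicate at 0, beside 53.1%. In total 150 of the 156 had no listed base near a start in any replicate, and these included all 27 pseudogenes. They also included 16 genes annotated from the start codon on and 21 with no annotated start codon. At these the annotated start may miss the promoter. Of the 119 genes annotated to start before the start codon, 0, 3 and 1 had a shorter-list peak in replicates 1, 2 and 3.

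The other protein-coding genes of the window were open more often, though less often than genes at large. Of these 24 genes, 5, 8 and 7 had a shorter-list peak at a start in replicates 1, 2 and 3, and 5 had one in each. As a share this was 0.855% ± 0.979 of the olfactory receptor genes and 27.8% ± 6.36 of the other protein-coding genes (SD, n = 3), and the values of the replicates did not overlap. The open genes were Rrm1 and members of the Trim family. Of 12 Trim genes, which code for ubiquitin ligases with antiviral roles, 4, 7 and 6 were open. This was 33.3%, 58.3% and 50%, beside 51.5%, 57.5% and 55.5% of all protein-coding genes, so not above the usual share by much in any replicate. None of the 5 Usp17l genes (deubiquitinating enzymes) had a peak in either list. Repeated sequence, from which reads cannot be placed, was more common among the other genes. At 137 of the 156 olfactory receptor genes, against 14 of the 24 others, at least 80% of the words of 32 bases around the start (1 kb) occur nowhere else in the genome. Among those 137 receptor genes, 2 had a shorter-list peak in any replicate, beside 3 of all 156. The other genes were not restricted in the same way, so the part of repeated sequence in the difference was not tested.

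The olfactory receptor genes of other clusters were closed as well. A shorter-list peak lay at 1, 4 and 4 of the 1251, and Olfr464 on chromosome 11 was the gene with one in each replicate (0.895, 0.636 and 0.897, mean 0.809 ± 0.150, SD, n = 3). The next by mean signal were Olfr1069-ps1 on chromosome 2, with 0, 0.862 and 0.701 in replicates 1, 2 and 3, and Olfr1033 on the same chromosome, with 0, 0.410 and 0.399. Olfr1342 and Olfr156 on chromosome 4 had 1 peak each, of 0.392 in replicate 3 and of 0.351 in replicate 2. As a mean share, 0.855% ± 0.979 of the genes around the β-globin locus and 0.240% ± 0.138 of those elsewhere had a shorter-list peak (SD, n = 3). The share was lower around the locus in replicate 1 and higher in the other replicates.

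**Figure D1:**
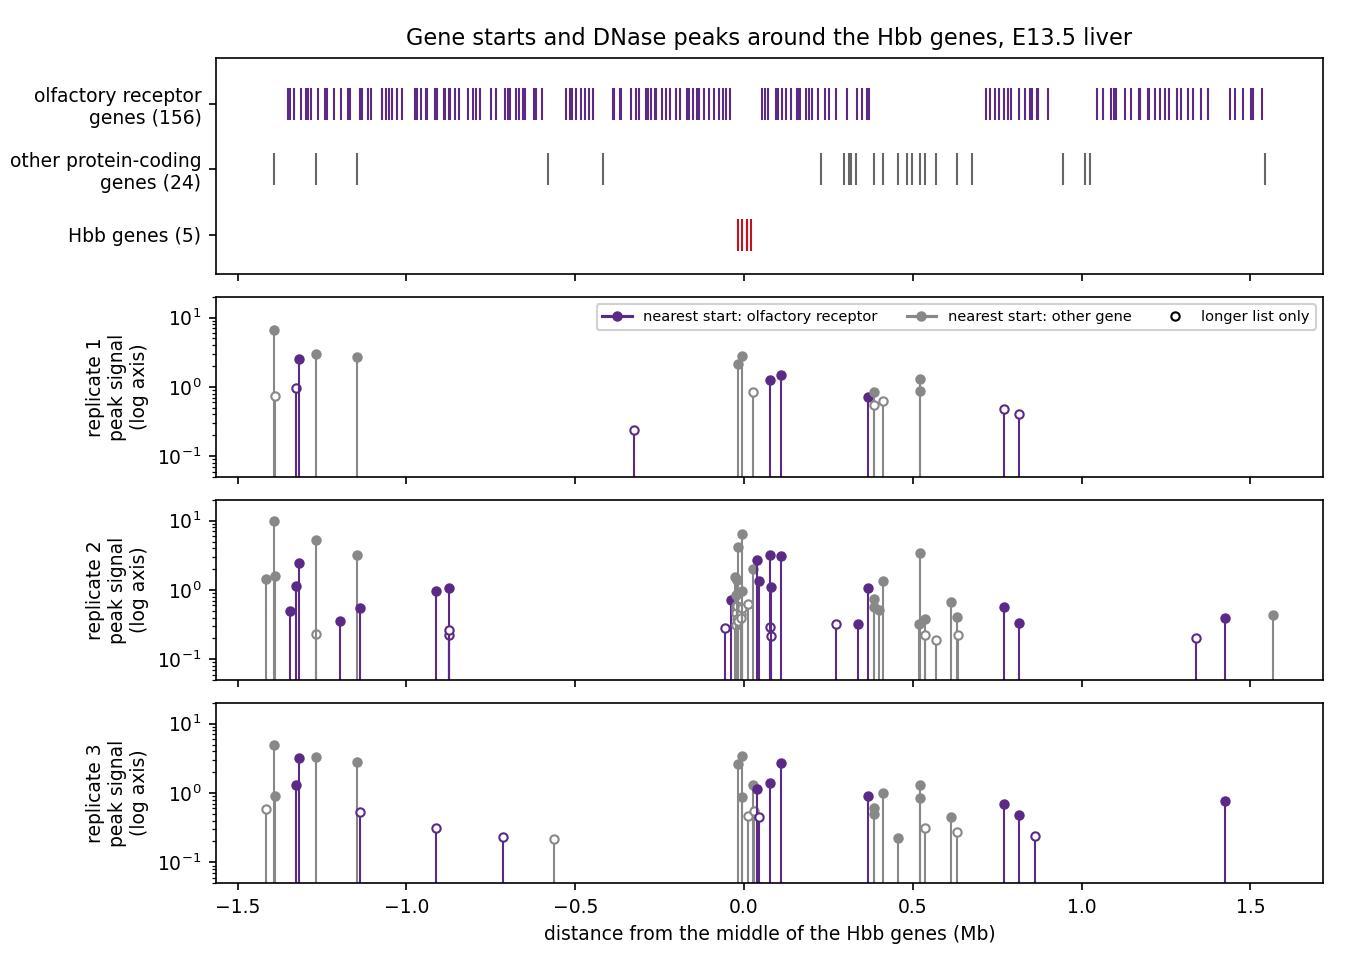
Top, starts of the olfactory receptor genes, of the other protein-coding genes and of the Hbb genes, by distance in Mb from the middle of the Hbb genes. Below, peak signal on a log axis for each replicate, violet where the nearest protein-coding or olfactory receptor gene start is an olfactory receptor gene, hollow where only the longer list holds the peak. Dense rows of receptor genes stand over stretches with few or no peaks.

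Olfr658 was the gene of the 156 with open chromatin at its start in each replicate. The gene lies at chr7:104642877-104647305 on the minus strand, 794 kb from the Hbb genes on the higher side. Its start held a longer-list peak with a signal of 0.403, 0.335 and 0.475 in replicates 1, 2 and 3 (0.404 ± 0.070, SD, n = 3), which is in the shorter list of replicates 2 and 3 but not of replicate 1. Within 500 bp of the start 355, 417 and 474 bases were listed, with 0, 2 and 1 footprints. The signals were alike in the 3 replicates but low, since 5.77%, 17.9% and 22.3% of all longer-list peaks of those replicates were weaker. The median signal of protein-coding promoters with a longer-list peak was 4.51, 4.97 and 4.17. The start of Olfr658 also had the highest CpG ratio (observed over expected CG dinucleotides) of the 156 genes, 0.409, with 52.4% G and C. Of the words in that 1 kb 73.9% occur at a single place in the genome, and of those in the peak 98.5%. The peak of replicate 3 over this start is printed on the plus strand, with the bases of its footprint in that replicate in capitals, because no other receptor start of the 156 had a peak in each library.
Olfr658 start, chr7:104647221-104647460: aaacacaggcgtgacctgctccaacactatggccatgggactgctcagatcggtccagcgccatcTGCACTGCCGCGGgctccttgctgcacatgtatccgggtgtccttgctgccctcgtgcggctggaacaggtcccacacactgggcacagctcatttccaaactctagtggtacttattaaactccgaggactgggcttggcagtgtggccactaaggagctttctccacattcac

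Olfr575, at chr7:102952270-102958775 on the minus strand and 854 kb from the Hbb genes, had the strongest receptor promoter peak, but in replicate 2 alone. Its signal there was 1.06, above 65.8% of the longer-list peaks of that replicate, and neither list held a peak at this start in replicates 1 and 3. Listed bases numbered 0, 792 and 6 in replicates 1, 2 and 3. The 3 footprints of replicate 2 within the peak are in capitals.
Olfr575 start, chr7:102958681-102958920: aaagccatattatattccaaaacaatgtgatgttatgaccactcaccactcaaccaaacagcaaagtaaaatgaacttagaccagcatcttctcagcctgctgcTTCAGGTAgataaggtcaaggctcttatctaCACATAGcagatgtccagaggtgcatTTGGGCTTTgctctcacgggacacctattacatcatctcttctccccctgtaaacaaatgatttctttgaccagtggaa
The peak spans the start of the gene, whose 1 kb held 37.1% G and C and a CpG ratio of 0.088.

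The other receptor starts with any signal were weaker or seen in fewer libraries. Olfr557 (chr7:102695910-102700707, plus strand) had a shorter-list peak of 0.544 in replicate 2 and a longer-list peak of 0.527 in replicate 3, 0.210 kb before its start, with 0, 236 and 161 listed bases in replicates 1, 2 and 3. The region of these peaks, joined over replicates, holds a match to the CTCF motif that a footprint overlaps in replicates 2 and 3. That match (chr7:102695576-102695587) lies outside the shorter-list peak of replicate 2 (chr7:102695601-102695700). Olfr610 had a longer-list peak of 0.239 in replicate 1 alone, with 133 listed bases. That peak lay 0.424 kb from a second annotated start inside the gene. Olfr68 had a longer-list peak of 0.284 in replicate 2 alone, 0.485 kb from an annotated start inside the gene, with 16 listed bases, and 63.1% of the words of that peak occur at a single place. Olfr78, known for roles outside the nose as a receptor of short fatty acids, had 10 listed bases in replicate 2 and no peak. Without replicate 2, the genes with a shorter-list promoter peak were reduced to Olfr658.

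The genes that stand nearest to the globin genes were closed at their starts. At lower coordinates these are Olfr67, Olfr68 and Olfr69, whose starts lie 20.7, 32.8 and 40.9 kb from the Hbb span, and at higher coordinates Olfr66, Olfr64 and Olfr65, at 33.0, 41.3 and 50.3 kb. None of the 6 had a shorter-list promoter peak in any replicate, and Olfr68, described above, was the only one with a longer-list peak or a listed base. At the outer ends of the array, the first gene, Olfr543, and the last, Olfr692, likewise had no peak of either list and no listed base at their starts.

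Open chromatin did occur between receptor genes. Joined over the replicates, 29 longer-list regions of the window had an olfactory receptor gene as the nearest protein-coding or receptor gene start, and 23 of these lay over 500 bp from any receptor start. In the shorter lists, 4, 18 and 9 such regions had a peak in replicates 1, 2 and 3, and 4 had one in each. All 4 lay away from the promoters. Their mean signals stood among those of the 24196 regions common to the 3 replicates across the genome, whose median was 2.51 with quartiles of 1.44 and 5.31. The 4 regions are printed below as they carry the reproducible signal of the array, on the plus strand.

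The strongest stood between Olfr545 and Olfr546-ps1, at the outer, lower end of the array and 1299 kb from the Hbb genes. Its signal was 2.52, 2.49 and 3.24 in replicates 1, 2 and 3 (2.75 ± 0.426, SD, n = 3), above 53.6% of the common regions, and it held 4, 4 and 7 footprints. It had the composition of a CpG island, with 67.5% G and C and a CpG ratio of 0.975 over its own length, where the region at the Olfr658 start had 57.7% and 0.547, yet the nearest annotated receptor start was 7.95 kb away and no annotated gene overlaps it. Its CG dinucleotides are in capitals.
Region between Olfr545 and Olfr546-ps1, chr7:102513181-102513380: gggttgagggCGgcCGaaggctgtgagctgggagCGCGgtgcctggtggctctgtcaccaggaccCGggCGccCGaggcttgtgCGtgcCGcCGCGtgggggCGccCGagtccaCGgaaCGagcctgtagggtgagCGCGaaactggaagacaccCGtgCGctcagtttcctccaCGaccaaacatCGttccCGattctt
A weaker region lay between the same genes, 7.35 kb from the Olfr545 start (chr7:102506921-102507140). It was in the longer list of each replicate, with 0.958, 1.14 and 1.30, and in the shorter list of replicates 2 and 3.

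Of the other common regions, 2 held a match to the CTCF motif. Each match was overlapped by a footprint, at least in part, in all 3 replicates. The first lay between Olfr632 and Olfr633, 1.40 kb before the Olfr633 start and 89.7 kb from the Hbb genes on the higher side, the side of the locus control region. Its signal was 1.47, 3.14 and 2.67 (2.43 ± 0.859, SD, n = 3), with 2, 4 and 3 footprints. The second lay between Olfr649 and Olfr650-ps1, 347 kb from the Hbb genes and next to the Trim genes, with a signal of 0.706, 1.06 and 0.912 (0.893 ± 0.179, SD, n = 3) and 3, 1 and 3 footprints. The second was weak for a common region, above 7.32% of them. The CTCF matches are in capitals, on the minus strand in the first region and on the plus strand in the second.
Region between Olfr632 and Olfr633, chr7:103942841-103943040: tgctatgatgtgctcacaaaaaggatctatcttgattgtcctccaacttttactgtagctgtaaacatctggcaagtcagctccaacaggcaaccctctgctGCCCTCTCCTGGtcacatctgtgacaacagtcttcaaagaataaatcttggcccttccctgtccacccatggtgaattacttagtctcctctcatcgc
Region between Olfr649 and Olfr650-ps1, chr7:104199941-104200100: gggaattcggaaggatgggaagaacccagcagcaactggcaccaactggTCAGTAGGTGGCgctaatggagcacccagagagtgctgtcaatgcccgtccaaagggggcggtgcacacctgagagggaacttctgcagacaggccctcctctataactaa
The CTCF motif was searched as a consensus of 12 letters with at most 1 mismatch on both strands. In windows of 300 bp at the middle of a region, it was found in 2 of the 4 common regions nearest to a receptor start and in 24.9% of the 24196 common regions of the genome. Over the genome 82.8% of the 6504 matches in such windows were overlapped by a footprint in all 3 replicates. In the longer lists the motif was found in 10 of the 29 regions near receptor genes, or 34.5%, and in 20.8% of 96276 regions of the genome.

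The last common region lay beyond the far end of Olfr65, 3.74 kb from its nearest annotated start and 56984 bp from the Hbb genes on the higher side. Its signal was 1.25, 3.22 and 1.40 in replicates 1, 2 and 3 (1.96 ± 1.10, SD, n = 3), above 39.2% of the common regions, with 0, 5 and 4 footprints. Replicate 2 was well above the others here. The region holds a single match to AGATAA or TGATAA, the sequence that the erythroid factor GATA1 is known to bind, shown in capitals, and no footprint covered that match in any replicate.
Region beyond Olfr65, chr7:103910081-103910320: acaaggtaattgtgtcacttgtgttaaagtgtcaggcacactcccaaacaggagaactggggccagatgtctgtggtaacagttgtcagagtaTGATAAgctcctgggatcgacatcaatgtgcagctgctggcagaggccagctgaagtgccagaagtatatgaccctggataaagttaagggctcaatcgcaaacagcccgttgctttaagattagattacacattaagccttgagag
The same letters, searched on both strands, were found in 15 of the 29 regions near receptor genes, or 51.7%, and in 26.7% of the longer-list regions of the genome, in windows of 300 bp. The 29 include regions close to the Hbb genes, some of them with such a match. Of the 29, 8, 25 and 14 were in the longer lists of replicates 1, 2 and 3, and 7 in each. This share, like that of the CTCF motif above, was not split by distance or replicate, so it describes this set alone. A further region between Olfr65 and Olfr631 (chr7:103913081-103913240), with a CTCF match, was in the lists of replicate 2 alone, with 1.12.

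On the lower side of the globin genes no region near a receptor gene with a CTCF match was seen in each replicate. Between Olfr67 and the Hbb genes, 1.20 kb before the Olfr67 start and 19.4 kb from the Hbb span, replicate 2 alone had a peak of 0.728 (chr7:103793021-103793200). A footprint overlapped the CTCF match in that peak. Farther out on the higher side, between Olfr655 and Olfr656 and 750 kb from the Hbb genes, a region with a CTCF match was in the longer list of each replicate (chr7:104603281-104603452, with 0.479, 0.569 and 0.686). The shorter list of replicate 1 did not hold it.

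**Figure D2:**
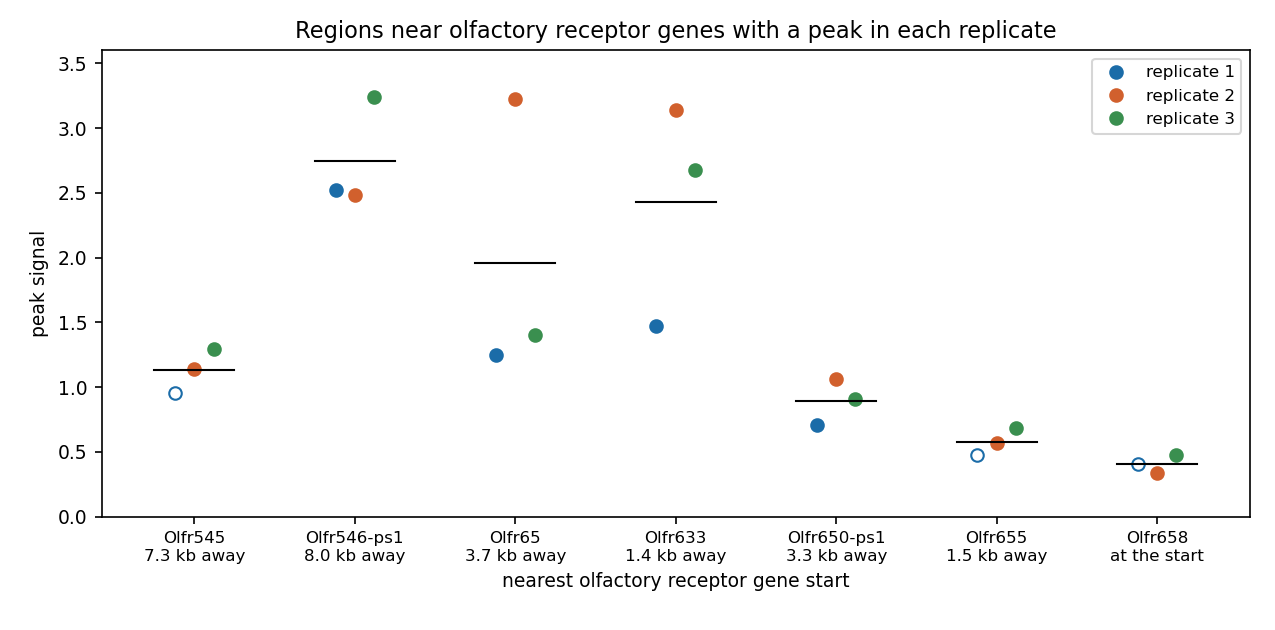
Peak signal in each replicate of the 7 regions near olfactory receptor genes that had a longer-list peak in each of the 3 replicates, in order along the chromosome. The black line is the mean, and hollow points are in the longer list only. The highest mean, 2.75, was that of the CpG-rich region near Olfr546-ps1, and the lowest, 0.404, that of the Olfr658 start.

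The array was then read in stretches of 100 kb. Stretches where receptor genes outnumber other annotated gene starts (23 stretches with 144 of the 156 genes) had 0.261, 0.913 and 0.478 shorter-list peaks per 100 kb in replicates 1, 2 and 3 (0.551 ± 0.332, SD, n = 3). The 7 other stretches had 0.857, 3 and 1.86 (1.90 ± 1.07), and without the stretch that holds the Hbb genes 0.667, 1.83 and 1.33 (1.28 ± 0.585). The receptor stretches had fewer peaks than either in every replicate. They also lay below the genome as a whole, which had 1.03, 2.10 and 1.52. Listed bases gave the same order, at 345 ± 161 per 100 kb in receptor stretches and 890 ± 643 in the others (SD, n = 3). Without the Hbb stretch the others had 534 ± 293, and in replicate 1 the difference was then small, 207 in receptor stretches against 221 in the others. The stretches that hold the starts of Rrm1, Trim21 and Trim68 count as receptor stretches. In replicate 1 they held 1099, 1198 and 636 listed bases, of which 926, 545 and 636 lay within 500 bp of a start of these genes. Each of these genes also had a shorter-list promoter peak in replicate 1. Receptor stretches were not read without these promoters. Footprints numbered 2.01 ± 0.916 per 100 kb in receptor stretches, against 6.62 ± 4.07 in the others and 6.13 ± 1.32 in the genome. Without the Hbb stretch the others had 3.11 ± 1.40 footprints. By replicate these were 1.5, 4 and 3.83, against 1, 2.78 and 2.26 in receptor stretches.

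The peaks were unevenly spread along the array. In 13 of the 23 receptor stretches no replicate had a shorter-list peak, and in 7 of them no replicate had a single listed base. The longest run without a listed base in any replicate was 396 kb (chr7:104774767-105170877), which holds the starts of 20 receptor genes from Olfr665 to Olfr684 and of 3 Usp17l genes. The second, of 271 kb (chr7:103506582-103777724), holds 22 receptor genes from Olfr610 to Olfr69. Without a shorter-list peak the longest run was 834 kb, with 56 receptor genes from Olfr576 to Olfr67. The reference sequence of these runs held 0% undetermined bases, and 42.3% to 46.2% of it is marked as repeats.

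**Figure D3:**
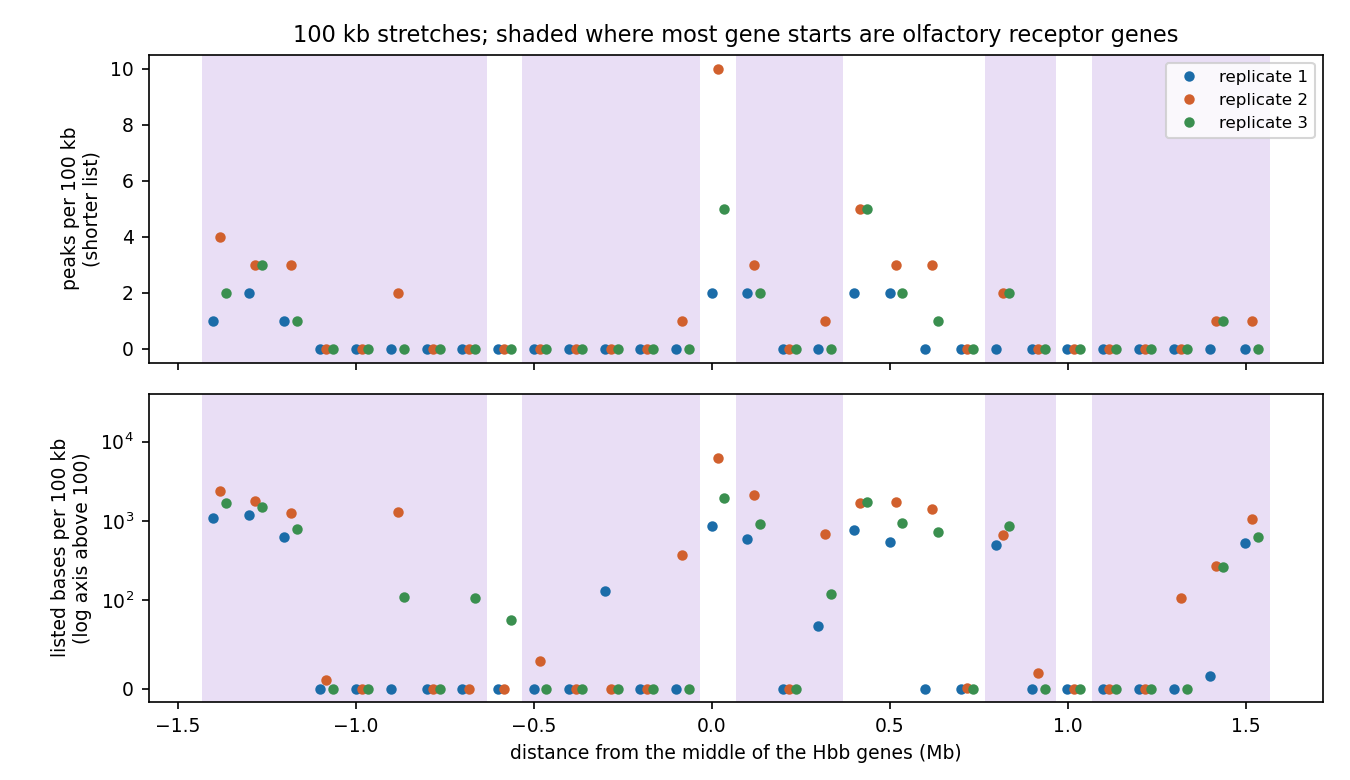
Shorter-list peaks (top) and listed bases (bottom, log axis above 100) per 100 kb stretch, by distance of its middle from the middle of the Hbb genes in Mb, 1 point per replicate. Stretches where receptor genes are in the majority are shaded. Values above 0 include those at the lower end, around the Hbb genes, over the Trim genes and in the stretch of Olfr658 (494, 673 and 854 listed bases). They also include the stretch of Olfr575 (0, 1292 and 109) and the last stretch (530, 1047 and 638, with a shorter-list peak in replicate 2 alone). Several shaded stretches are at 0 in every replicate.

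Open chromatin near the receptor genes neither grew nor declined steadily with distance from the globin genes. In the first 100 kb beyond the Hbb span on the lower side there were 7 receptor genes and 0, 4 and 0 shorter-list peaks in replicates 1, 2 and 3, with 0, 2651 and 0 listed bases. Those listed bases are thus those of replicate 2 alone. Of the 4 peaks, only that at chr7:103793021-103793200 had a receptor gene start, that of Olfr67, as its nearest. The others lay 0.844 to 5.45 kb from the Hbb span, with Hbb-bt as the nearest start. The stretch from 103.7 to 103.8 Mb, which ends before those peaks, held 372 listed bases in replicate 2. The steps of 100 to 200 and 200 to 300 kb on that side held 8 receptor genes each and no peak of either list, no listed base and no footprint in any replicate. On the higher side the first 100 kb, with 6 receptor genes and the remaining locus control region, had 2, 6 and 4 shorter-list peaks and 682, 3278 and 1603 listed bases. The step from 100 to 200 kb on that side, with 9 receptor genes, had no peak and no listed base. On the lower side, each of the steps between 1100 and 1400 kb, which also hold Rrm1, Trim21 and Trim68, had a shorter-list peak in every replicate. The steps of 1000 to 1300 kb on the higher side, with 5, 8 and 6 receptor genes, had no peak, listed base or footprint.

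Peaks were far from most receptor genes. The median distance from a receptor gene start to the nearest shorter-list peak was 214, 70.5 and 119 kb in replicates 1, 2 and 3. It was 48.4, 25.3 and 31.2 kb for the other protein-coding genes of the window, 342, 146 and 231 kb for olfactory receptor genes elsewhere and 1.98, 0.264 and 0.422 kb for all protein-coding genes. These distances get shorter where a list holds more peaks, as in replicate 2. Of the 156 genes, 103, 63 and 84 lay over 100 kb from the nearest peak, and 8, 22 and 11 lay within 10 kb.

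**Figure D4:**
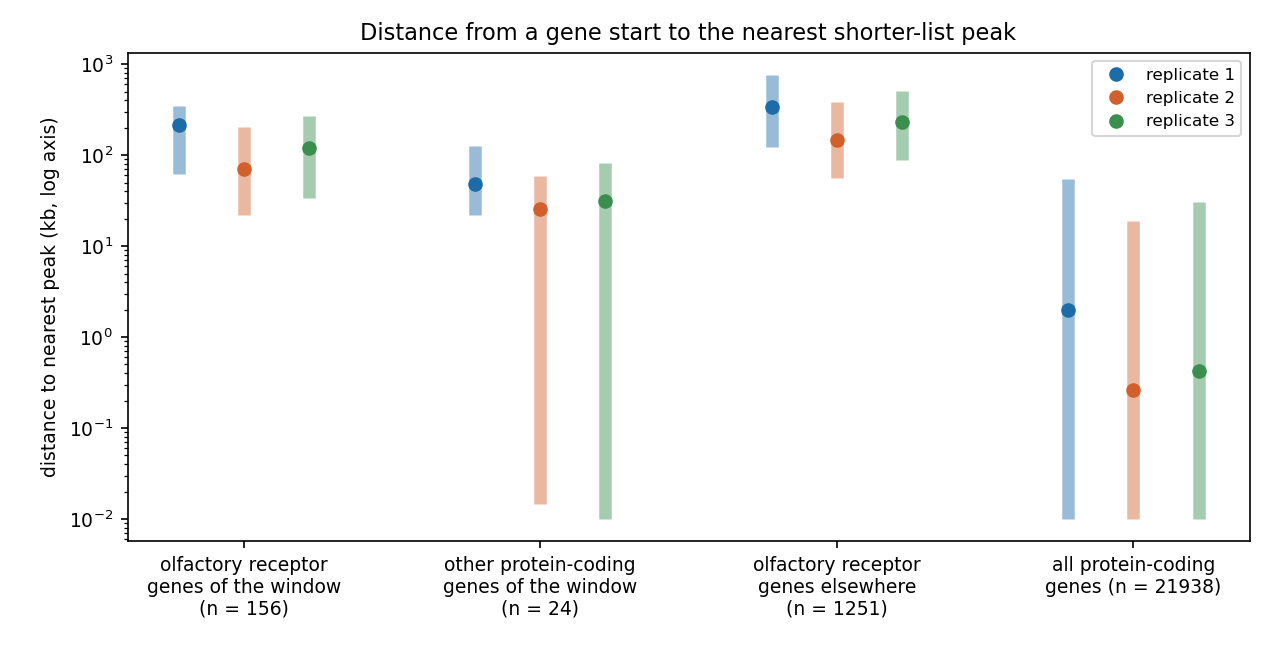
Distance in kb, on a log axis, from a gene start to the nearest shorter-list peak in each replicate. Points are medians and bars the quartiles, with values under 0.01 kb drawn at 0.01. The medians of the receptor genes of the window lie above those of the other protein-coding genes of the window and below those of receptor genes elsewhere, in each replicate.

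Other genes stand as open points among the receptor genes or beside them. Rrm1 lies at lower coordinates than the first receptor gene, Olfr543. Rrm1, which codes for the large subunit of ribonucleotide reductase, had a promoter signal of 6.63, 10.02 and 4.88 in replicates 1, 2 and 3 (7.18 ± 2.61, SD, n = 3). Trim21, a cytosolic antibody receptor gene set between receptor genes, had 2.94, 5.28 and 3.35 (3.86 ± 1.25). Trim68, likewise flanked by receptor genes, had 2.68, 3.19 and 2.83 (2.90 ± 0.260), while Olfr557, whose start lies 8.47 kb from that peak, had none in replicate 1. In the Trim block, Trim12c had 1.29, 3.38 and 1.29 (1.98 ± 1.21), Trim34a 0, 1.34 and 1.02 (0.785 ± 0.699) and Trim6 0.844, 0.745 and 0.610 (0.733 ± 0.117). Trim34a had a longer-list peak of 0.630 in replicate 1. Farther into that block, Trim30b and Trim30a had shorter-list peaks of 0.377 and 0.402 in replicate 2 alone, and Trim5 of 0.226 in replicate 3 alone. Of the words of the Trim5 peak 0% occur at a single place in the genome, so its reads may come from elsewhere. Trim5 is nevertheless counted among the open Trim genes of replicate 3. In replicate 3, Trim30b and Trim30a had longer-list peaks of 0.309 and 0.271. Trim12a, Trim34b, Trim30c and Trim30d had no shorter-list peak, and Trim30c had a longer-list peak of 0.192 in replicate 2. Of the other genes between receptor genes, Usp17ld, Usp17lc, 4930516K23Rik, Ubqln5, Ubqlnl, Olfm5, Usp17le, Usp17lb and Usp17la had no promoter peak and no listed base in any replicate.

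The starts of receptor genes were poor in CG dinucleotides. In the 1 kb around the gene's own start, G and C made up a median of 38.4% in the 156 genes (28.1% to 52.4%). It was 45.4% in the other protein-coding genes of the window and 54.7% in all protein-coding genes. The median CpG ratio was 0.104, 0.138 and 0.552 in those groups, and 0.107 in receptor genes elsewhere. Of the 6 receptor genes with any listed base, Olfr658 had the highest ratio and the others had 0.088 to 0.167. A low ratio at the gene's own start was thus shared by closed genes and by 5 of these 6. The peaks of Olfr610 and Olfr68, however, lay at starts inside the gene, which this 1 kb does not describe. Over their own length those peaks had ratios of 0.156 and 0.354. Rrm1 and Trim68, open in each replicate, had 0.844 and 0.671, but Trim21, also open in each, had 0.154.

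**Figure D5:**
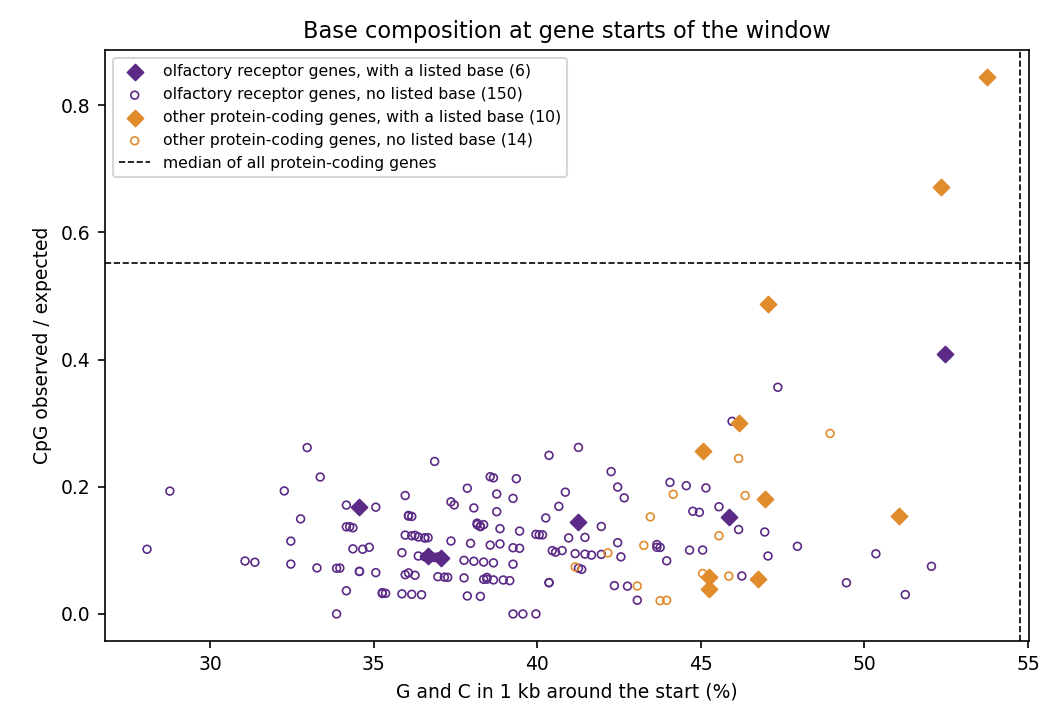
CpG ratio against the percentage of G and C in the 1 kb around each gene's own start, for the receptor genes and the other protein-coding genes of the window. Filled diamonds had a listed base near any annotated start in at least 1 replicate, and dashed lines are the medians of all protein-coding genes. All 156 receptor genes lie below the median CpG ratio of 0.552, and the highest of them, at 0.409, is Olfr658.

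Promoters were searched on both strands, from 250 bp before to 50 bp after the gene start, for sequences that bind factors of receptor choice. TAATTA, a core of LHX2 sites, was found in 14.1% of the 156 promoters, 24.5% of those of receptor genes elsewhere and 5.30% of all protein-coding promoters. CCCNNGGG, a core of EBF sites, was found in 15.4%, 12.8% and 15.8% in the same order. The erythroid letters AGATAA or TGATAA were found in 33.3% of the 156 promoters, 45.1% of those of receptor genes elsewhere and 16.7% of all protein-coding promoters. TAATTA and the GATA letters are rich in A and T, as are receptor promoters. Such matches were thus present in closed promoters in this tissue.

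The genes that act on receptor genes in olfactory neurons had open promoters in many cases in this liver. Of 18 such genes 14 had a shorter-list promoter peak in each replicate, as did 50.9% of all protein-coding genes. Among the activators, Ldb1, whose protein also works with GATA1 in red cell precursors, had a signal of 5.19 ± 0.415, Ebf1 2.15 ± 0.537 and Ebf2 2.37 ± 0.124 (SD, n = 3). Lhx2 had 0, 1.12 and 1.07 in replicates 1, 2 and 3, and a longer-list peak of 0.983 in replicate 1. Ebf4 and Emx2 had no promoter peak in either list. Among the genes for heterochromatin, Setdb1 and Ehmt1, which code for histone H3 lysine 9 methyltransferases, had 5.94 ± 1.83 and 8.37 ± 1.13, Cbx5, the HP1α gene, 8.26 ± 4.01, and Lbr, which tethers heterochromatin to the nuclear envelope, 9.88 ± 2.35. Ctcf had 5.77 ± 0.524 and Rad21, a cohesin gene, 8.28 ± 2.00. An open promoter does not show how much of the protein is made.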

How the data were processed

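DNase-seq files of 3 libraries of 1 group were used. Notes deposited with them say that each was derived from one sample's filtered reads on mm10, with no pooling. The names of the aligner, peak caller and footprint caller remain not given in the sources used here. For each peak the authors deposited a signal without stating its unit. It was read as cut density scaled to read depth, from its fixed steps, and used as deposited. The deposited FDR files hold a q-value per stretch of bases, all below 0.05, so an unlisted base may still have cuts. The deposited footprints carry an FDR of 0.01 in every entry.

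Gene starts came from GENCODE M21, and all annotated transcript starts of a gene were used. Sequences were read from the GRCm38 genome of RefSeq. A peak, footprint or listed base counted for a gene within 500 bp of a start. Peaks of different replicates sharing 1 bp were joined into regions. Stretches were 100 kb long and a peak belonged to the stretch of its middle. Unique sequence was measured with words of 32 bases. No depth is stated, so no counting interval is given. There is 1 group, so no test between conditions was made, and genes were not treated as replicates. Overlap, distance, joining and motif functions were tested on simulated data in Python 3.11.15 with numpy 2.4.6.

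The genes, lists and tests were chosen with earlier results of these data known. The receptor genes named are those with a promoter peak in any replicate, the 5 with most listed bases, the 3 nearest to the Hbb genes on each side, the first and last, and the neighbours of each common region. The other genes named are the 5 of the window with the highest promoter signal, those between receptor genes (1 is not reported here) and the 5 receptor genes elsewhere with the highest signal. Olfr78, the sixth receptor gene with a listed base, was named after its values were seen. Alternatives were another peak list, window, start, FDR limit, peak threshold, stretch length and the omission of each replicate.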

Additional observations from a re-analysis of the deposited data

How the results depend on the processing

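The count of receptor genes with a shorter-list promoter peak in any replicate was 3. It was 5 in the longer lists, 0 with the upper 50% of each shorter list by signal, 0 with the 28209 strongest peaks of each replicate, and 18 when the window reached from 10 kb before the start, which was chosen after seeing the data. In each replicate it was 0 in the shorter lists, 1 in the longer lists and 6 with the 10 kb window. With a replicate left out it was 1 to 3 in any and 0 to 1 in each of the others. The 24 other protein-coding genes gave 9 in any and 5 in each replicate, and 5 and 3 with the upper 50% of peaks. Without a replicate they gave 7 to 9 and 5 to 6. Receptor genes with a listed base numbered 6, but 3 at an FDR under 0.01 and 3 under 0.001, and 4 to 6 without a replicate. Those with a footprint numbered 3, and 2 to 3 without a replicate. Receptor stretches minus others gave -1.35 shorter-list peaks per 100 kb (-1.73 to -0.988 without a replicate) and -2.17 in the longer lists. For listed bases the difference was -545 (-765 to -287 without a replicate). Without the Hbb stretch, also chosen after seeing the data, these differences were -0.727 and -189. No difference changed sign in the alternatives run, and 56 of 69 alternatives stayed within 1.5 times the count or 1 SD. That SD over replicates was wide for listed bases, since the change from -545 to -189 also counted as within it. A count of 0 in both settings also counted as unchanged. The tally therefore says little about how stable the results are. The cause of the changes was not tested, except that the upper 50%, the equal lists and the lower FDR limits keep fewer peaks or bases. No paired analysis was possible because there is 1 group.
Replicate 1 had the fewest peaks, so a promoter closed there alone may lie below its detection, and an unlisted base is not a base without cuts.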

Other observations

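In the wider surroundings of the receptor genes, from 10 kb before the gene's own start to 500 bp after it, 6, 18 and 9 of the 156 had a shorter-list peak in replicates 1, 2 and 3, and 6 had one in each. In each replicate this was 3.85% of the receptor genes, against 20.8% of the 24 other protein-coding genes of the window and 52.2% of all protein-coding genes. From 5 kb before the start the counts were 3, 14 and 5, with 3 in each, or 1.92%, against 20.8% and 49.2% of those groups. A peak in such a window can belong to a neighbour, as receptor starts lie a median of 13.3 kb apart.

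Olfr544 and Olfr558, chosen after their values were seen because they are known for roles outside the nose, had no promoter peak and no listed base at the start. Olfr544 had a peak of 0.494 inside the gene, 1.82 kb from its start, in replicate 2 alone, and 0, 260 and 0 listed bases over its body in replicates 1, 2 and 3. Olfr558 had 0 in each replicate.

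Near the outer, higher end of the array a region 15.9 kb from the Olfr687 start (chr7:105256761-105256960) had a peak of 0.393 in replicate 2 and 0.761 in replicate 3 and none in replicate 1. It held a CTCF match, overlapped by a footprint in replicates 2 and 3.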
